A study of Gallus gallus with 12 samples.

Results

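Whole chick lung at embryonic day (E)16 was compared with whole chick lung at E14 in all 21390 transcripts of a custom NimbleGen array. The comparison holds 6 of the 12 arrays of a series that also covers E15 and E18, with 3 arrays at each of the 4 stages. All lungs came from untreated white leghorn embryos, and the stages are labelled by days of incubation alone. The sex of the embryos and the slide and processing batch of each array are not given in the sources used here. The labelled cDNA was made from total RNA of the whole lung. Neither the labels nor the methods say whether an array holds 1 embryo or a pool, so the p-values below measure the spread between these samples only.

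In the bird lung gas is exchanged in fine air capillaries that grow out of the walls of parallel tubes, the parabronchi. The walls first form shallow pockets, the atria, which deepen into infundibula and then into air capillaries wrapped in blood capillaries, so that a thin blood-gas barrier is in place before hatching. The interval compared here lies in the period in which these pockets form. In RNA of a whole lung, fewer cells of a type and less RNA per cell cannot be told apart. The transcripts carry Ensembl identifiers, of which 0 of 21390 matched the gene table used here, so no gene is named and the lung label was not checked against marker genes.

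Between E14 and E16 most transcripts moved little, and 54 of the 21390 passed the test, 30 higher and 24 lower at E16. The level of a transcript is given as its log2 signal and a difference as the E16 mean minus the E14 mean, so 1 log2 unit is a 2-fold difference. The median size of a difference was 0.20 log2 units, or 1.15-fold, and the middle of the distribution was narrow, with a 5th percentile of -0.58 and a 95th percentile of 0.78. The most positive difference was 4.63 and the most negative -3.22. The median difference was -0.03, and 44.9% of the transcripts had a positive and 55.1% a negative difference.

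The arrays of each stage were compared first, since their spread sets what can be seen. The median signal was 10.69, 10.74 and 10.73 on E16 replicates 1, 2 and 3, against 10.75, 10.76 and 10.74 on E14 replicates 1, 2 and 3. The spread of the transcripts within an array (SD) was 2.51, 2.61 and 2.59 at E16, against 2.62, 2.61 and 2.62 at E14, so that E16 replicate 1 was the most compressed of the 6. Its dimmer transcripts lay slightly above and its brighter ones slightly below the E14 mean, with a median of 0.06, -0.12 and -0.04 in the dim, middle and bright class of 3 equal classes of transcripts by level. In the same classes the medians were 0.001, -0.03 and -0.02 on E16 replicate 2. On E16 replicate 3 they were -0.01, -0.08 and -0.04, so the lower level of the brighter classes was not particular to replicate 1. The typical transcript varied more between the E16 arrays, with a median SD of 0.17 at E16 and 0.14 at E14.

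A pair of single arrays gives the plainest measure of how far the stages stood apart. In the 6 pairs of an E14 array with E16 replicate 2 or 3, between 4.48% and 6.36% of the transcripts differed at least 2-fold. In the pairs of E16 replicate 1 with E14 replicates 1, 2 and 3 the shares were 10.9%, 11.9% and 11.8%. Inside E16 the shares were 6.97% and 8.31% for the pairs that hold replicate 1 and 3.93% for replicates 2 and 3, against 3.02%, 3.1% and 3.74% inside E14. By this share E16 replicate 1 differed more from the other E16 arrays than those arrays differed from E14. By the median size of a difference it did not, at 0.191 and 0.199 for replicate 1 with replicates 2 and 3, against 0.222 to 0.232 for replicates 2 and 3 with the E14 arrays. The correlations over transcripts were 0.954 to 0.984 between the stages, 0.960 to 0.974 inside E16 and 0.979 to 0.989 inside E14. The plot of array pairs shows these shares.

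**Figure D1:**
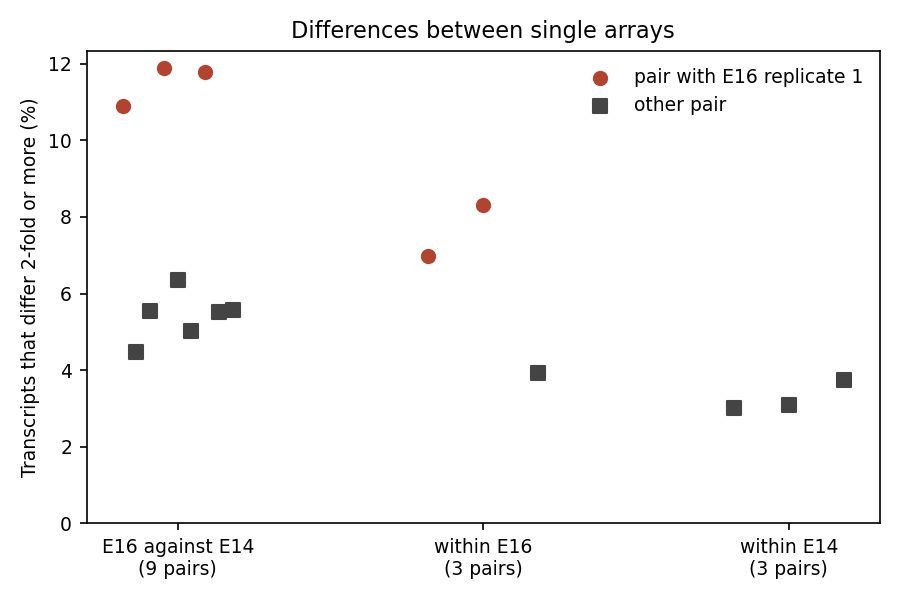
Percent of the 21390 transcripts that differ at least 2-fold between 2 single arrays, for the pairs of an E16 with an E14 array, the pairs inside E16 and the pairs inside E14. The pairs that hold E16 replicate 1 lie highest among the pairs between the stages, at 10.9% to 11.9%, and the pairs inside E14 lie lowest, at 3.02% to 3.74%.

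A transcript was called when limma's moderated test on the 6 arrays gave an adjusted p (Benjamini-Hochberg over all transcripts) of at most 0.05. The 54 called transcripts are 0.252% of those tested, with 0.14% called higher and 0.112% called lower. Their adjusted p lay between 0.0454 and 0.0494, the next transcript had 0.0505, 0 passed 0.01 (4704 had an unadjusted p of at most 0.05) and 1179 passed 0.1, of which 503 were higher and 676 lower. The count hung on single arrays, with 0 to 13 calls when any 1 of the 6 was left out, and on the settings of the fit, with 0 to 917 calls under the alternatives at the same threshold. The 54 are therefore described here as the transcripts with the strongest evidence in this fit, not as a complete list.

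Since the test weighs a difference against its spread, the called transcripts had differences that were large for their replicate spread. The 30 that rose had differences of 0.70 to 4.53, with a median of 1.37 (2.59-fold), and the 24 that fell had differences of -0.85 to -2.49, with a median of -1.29 (2.45-fold). Of the 54, 39 changed at least 2-fold, 21 of them higher and 18 lower. A change of at least 4-fold was found for 10 transcripts that rose and for 1 that fell. Their replicates had a median SD of 0.11 at E16 and 0.17 at E14 for those that rose and 0.17 at E16 and 0.12 at E14 for those that fell. Over all transcripts it was 0.17 at E16 and 0.14 at E14, but spread depends on level. The dim class, which held 18 of the 24 that fell, had 0.33 at E16 and 0.25 at E14. Against that class those that fell were tighter at both stages. The middle class, which held 16 of the 30 that rose, had 0.16 at E16 and 0.13 at E14. Against it those that rose were tighter at E16 only.

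Among the weaker differences lower transcripts outnumbered higher ones. The split of the calls, 30 higher and 24 lower, was itself not fixed. It was 48 and 48 with array weights and 389 and 473 with an intensity trend and robust variances. After cyclic loess normalization it was 85 and 50. Among the 4704 transcripts (22%) with an unadjusted p of at most 0.05, 1830 (8.56%) were higher and 2874 (13.4%) lower at E16, so 38.9% were higher. The 3 E16 arrays lay entirely above or below the 3 E14 arrays for 6558 transcripts (30.7%), with 2482 (11.6%) above and 4076 (19.1%) below, so 37.8% were above. All 54 called transcripts are among them. This excess of lower transcripts depended on the scaling. At an unadjusted p of at most 0.05, 39.6% were higher after quantile normalization and 46.3% after median centring. After cyclic loess normalization 50% were higher, and 3133 transcripts had E16 arrays above and 3252 had them below, so 49.1% were above.

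By size alone, without regard to the test, higher transcripts were the more frequent. A mean difference of at least 2-fold was measured for 941 transcripts, 672 higher and 269 lower, so 71.4% were higher. At 4-fold or more there were 174, 140 higher and 34 lower, and at 16-fold or more there were 3, all higher, of which 2 were called and the other had an adjusted p of 0.0527 (limma). The arrays of the stages did not overlap for 629 of the 941, 402 of them higher and 227 lower, where 30.7% of all transcripts had no overlap.

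The excess depended on single arrays. Without E16 replicate 1, 365 of the 941 (38.8%) fell under a 2-fold mean difference, 306 of the higher ones and 59 of the lower ones, while leaving out any of the other 5 arrays did so for 81 to 117 (8.61% to 12.4%). The 2-fold count without E16 replicate 1 was 673, 415 higher and 258 lower, so 61.7% were higher. In the dim class it was 227 higher and 147 lower without that array, against 449 higher and 145 lower with all 6. Without any 1 of the other arrays the count lay between 1061 and 1335. The share higher was 63.6% without E14 replicate 3 (682 higher and 391 lower), close to that without E16 replicate 1, and 67.9% to 76.3% without any of the other 4.

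A smaller group of large differences came from E16 replicate 3. On this array 64 transcripts exceeded each of the other E16 arrays by at least 16-fold, and 27 fell short of each by as much. Of the 64, 47 had a mean difference of at least 2-fold and all 47 are in the dim class, and of the 27, 26 had one, 17 of them in the bright class. The 27 had a median level of 12.33, and those 17 are most of the 23 transcripts of the bright class with a mean at least 2-fold lower at E16. On E14 replicate 2, 49 transcripts exceeded each of the other E14 arrays by at least 16-fold and 2 fell short by as much, of which 0 and 2 had a mean difference of at least 2-fold. None of these transcripts was called, which follows from how they were picked, since such a spread within a stage weighs against a call.

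The 140 transcripts at least 4-fold higher at E16 split into a pair of groups by array. For 90 of them, 82 in the dim class, E16 replicate 3 lay at least 4-fold above both other arrays of its stage. Relative to the E14 mean the median of these 90 was 2.43, 0.13 and 6.76 on E16 replicates 1, 2 and 3, and all 90 were within 2-fold of the E14 mean on E16 replicate 2. The same 90 had medians of 0.09, -0.02 and 4.18 on E15 replicates 1, 2 and 3 and of 1.15, 4.45 and 5.92 on E18 replicates 1, 2 and 3. Within E15 and within E16 they were thus high on some arrays and near their E14 level on others, within E18 their medians were unequal but all above 1, and none was called. Of the 90, 26 had E16 and E14 arrays without overlap, as did 30.7% of all transcripts and 22.5% of the dim class.

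The other 50 did not set E16 replicate 3 apart in this way. Their median relative to the E14 mean was 2.80, 2.36 and 2.53 on E16 replicates 1, 2 and 3. Their E16 and E14 arrays did not overlap for 46 of the 50, where 30.7% of all transcripts had no overlap. On E16 replicate 2, 6 of the 50 were within 2-fold of the E14 mean. Their medians were 0.84, 0.71 and 0.77 at E15 and 2.82, 2.94 and 3.21 at E18. The 10 transcripts that rose at least 4-fold and were called are all in this group, as are 20 transcripts of the dim class. Where the calls fall follows from the rule of the split, since the 90 must have a large SD at E16. The test weighs a difference against that SD. Both groups were formed from the values, so they are described without a test. The 90 make up most of the cloud of uncalled transcripts near a difference of 3 in the plot of difference against level.

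**Figure D2:**
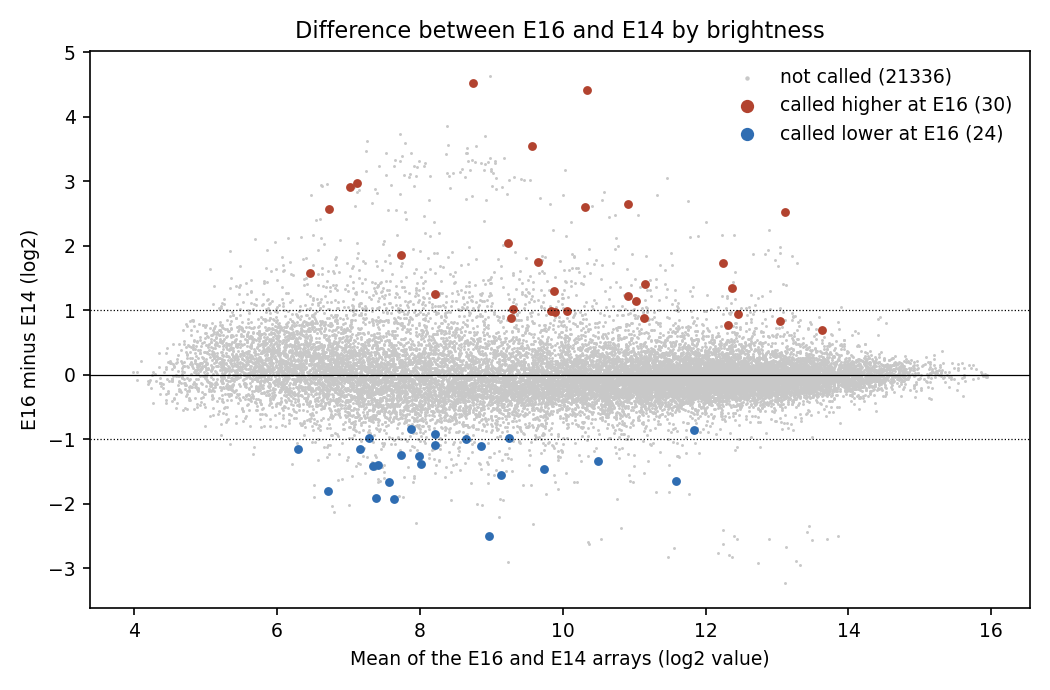
Difference in log2 signal, E16 mean minus E14 mean, of each of the 21390 transcripts against its mean log2 level over the 6 arrays, with the called transcripts coloured by direction. The 30 called higher and 24 called lower lie outside the dense band, and most called lower lie at the dim end, where their median level is 8.0.

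The called transcripts that fell were dimmer than those that rose. The mean level over the 6 arrays had a median of 9.24 in the 54 called transcripts, 9.97 in those that rose and 8.0 in those that fell, against 10.72 in all transcripts. The transcripts that rose had a median level of 11.17 at E16 and 9.28 at E14. The transcripts that fell had a median level of 7.40 at E16 and 8.64 at E14. The transcripts that fell were thus already dimmer than the typical transcript at E14. This gap was not a feature of every fit. With an intensity trend and robust variances limma called 389 higher and 473 lower, with median levels of 11.45 and 11.16, and 88 of the 473 lay in the dim class. Leaving out E16 replicate 3 and fitting all 12 arrays reversed it. Without E16 replicate 3 the 7 called higher had a median level of 9.66 and the 6 called lower 11.00, and with all 12 arrays the 21 called higher had 11.03 and the 2 called lower 11.91.

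The 3 classes by mean level hold 7130 transcripts each, with limits at 9.09 and 11.88. In the dim class 7 rose and 18 fell (0.351% called), in the middle class 16 rose and 6 fell (0.309% called), and in the bright class 7 rose and 0 fell (0.0982% called). The 18 fallers of the dim class are 18 of all 24. At an unadjusted p of at most 0.05 the bright class still held 535 higher and 871 lower transcripts, the middle class 723 and 1252, and the dim class 572 and 751, which is 19.7%, 27.7% and 18.6% of each. The calls alone therefore do not carry the direction of the weaker differences in bright transcripts.

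Both the size of the differences and the replicate spread shrank with brightness. The median size was 0.31 in the dim class, 0.21 in the middle class and 0.13 in the bright class. The median SD in the same order was 0.33, 0.16 and 0.10 at E16 and 0.25, 0.13 and 0.09 at E14. A 2-fold mean difference was measured for 449 higher and 145 lower transcripts in the dim class, 181 higher and 101 lower in the middle class and 42 higher and 23 lower in the bright class. Among those whose arrays did not overlap the counts were 210 higher and 131 lower, 152 higher and 88 lower, and 40 higher and 8 lower in the same order. Of all transcripts in each class, whatever their size of difference, 22.5%, 35.9% and 33.5% had no overlap.

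In 10 equal bins by level the share at an unadjusted p of at most 0.05 was 10.7% in the dimmest bin, 29% in bin 5 and 14.4% in the brightest. The dimmest was the only bin with more higher than lower transcripts at that threshold, 146 against 82. The plot by bins shows the size beside the spread.

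**Figure D3:**
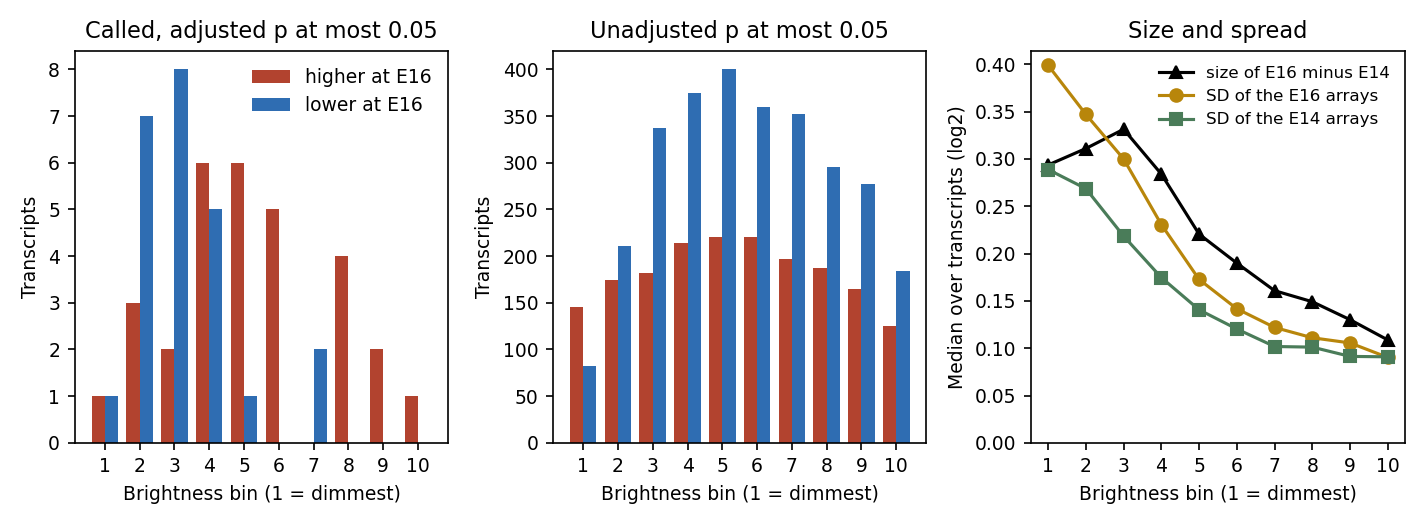
Transcripts in 10 equal bins by mean log2 level, from dimmest to brightest: the number called in each direction, the number at an unadjusted p of at most 0.05 in each direction, and the median size of the difference beside the median SD at E16 and at E14 in log2 units. The median SD at E16 is 0.40 in the dimmest bin and 0.09 in the brightest, and the lower transcripts outnumber the higher ones at that p in every bin but the dimmest.

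The control of random sequence gives a reference for low levels but not a floor, as the dimmest transcript of each array read 3.77 to 3.93. It read 4.61, 5.14 and 5.01 on the E16 arrays, against 5.08, 5.05 and 5.08 on the E14 arrays. Below it or at most 1 log2 unit above it on all 3 arrays of a stage were 493 transcripts at E16 and 1140 at E14. The control read lowest on E16 replicate 1, which makes the limit stricter at E16. These counts therefore do not show that fewer transcripts were at background at E16. Of the transcripts that rose, 0 were that near the control at E16 and 4 at E14. Of those that fell, 1 was that near at E16 and 0 at E14.

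The 4 named transcripts are extremes of the calls and do not span them. They are the one with the largest change and the one with the smallest p of the others in each direction. ENSGALT00000029580 had the largest rise. Its log2 level was 11.26, 11.37 and 10.37 at E16, against 6.77, 6.45 and 6.20 at E14. The groups lay far apart, and E16 replicate 3 was the lowest of its stage. The means were 11.00 ± 0.55 at E16 and 6.47 ± 0.29 at E14 (SD, n = 3 each), a difference of 4.53 (SE 0.30) or 23.1-fold, with a limma adjusted p of 0.0454. At E16 46.3% of all transcripts were brighter than it, against 89.4% at E14.

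ENSGALT00000014676 rose as one of the dimmest transcripts of the E14 lung. Its log2 level was 8.11, 8.85 and 8.50 at E16, against 5.55, 5.55 and 5.61 at E14, near the control. The E14 arrays lay almost on 1 value and the E16 arrays were more scattered, with means of 8.48 ± 0.37 at E16 and 5.57 ± 0.037 at E14 (SD, n = 3 each). The difference was 2.91 (SE 0.19), with a limma adjusted p of 0.0454, and no fold is given because the E14 level lies within 1 log2 unit of the control. At E16 72.1% of all transcripts were brighter, against 95.8% at E14.

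ENSGALT00000020900 had the largest fall. Its log2 level was 7.28, 7.97 and 7.94 at E16, against 10.48, 9.78 and 10.40 at E14. E16 replicate 1 was the lowest of its stage and E14 replicate 2 the lowest of its own, and the groups did not overlap. The means were 7.73 ± 0.39 at E16 and 10.22 ± 0.38 at E14 (SD, n = 3 each), a difference of -2.49 (SE 0.27) or 5.64-fold lower, with a limma adjusted p of 0.0488.

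ENSGALT00000039053 fell less but more evenly. Its log2 level was 8.18, 8.38 and 8.52 at E16, against 9.95, 9.82 and 9.95 at E14. The means were 8.36 ± 0.17 at E16 and 9.91 ± 0.074 at E14 (SD, n = 3 each), a difference of -1.55 (SE 0.11) or 2.93-fold lower, with a limma adjusted p of 0.0454. For each of the 4 transcripts an exact two-sided permutation test of 3 arrays against 3 gave p = 0.1, the smallest p this design allows. Every called transcript had E16 and E14 arrays without overlap, so picking from the calls fixed this p in advance.

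The E15 arrays placed most of the called transcripts closer to E14 than to E16. The median transcript had covered 27.8% of the way between the E14 and the E16 mean at E15, 17.5% for those that rose and 32.6% for those that fell. At E15 42 of the 54 lay nearer to E14, 6 lay nearer to E16, 2 lay beyond E16 and 4, all of them transcripts that rose by E16, lay on the other side of E14. Relative to the E14 mean, the median of the transcripts that rose was 0.38, 0.35 and 0.18 on E15 replicates 1, 2 and 3 and 1.39, 1.40 and 1.33 on E16 replicates 1, 2 and 3. The median of those that fell was -0.24, -0.21 and -0.66 at E15 and -1.35, -1.20 and -1.20 at E16.

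Single arrays gave the same picture without the means. All 3 E15 arrays lay below all 3 E16 arrays for 28 of the 30 transcripts that rose, and above them for 21 of the 24 that fell. Over all transcripts 7.82% had their E16 arrays entirely above and 7.26% entirely below the E15 arrays. The E15 arrays lay above all E14 arrays for 10 of the 30, where 3.7% of all transcripts did so, and below them for 15 of the 24, where 6.67% did. These counts share the E14 or the E16 arrays that made the calls.

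In the called transcripts the medians of the stage-to-stage differences put the larger step after E15. In the transcripts that rose the median difference was 0.32 for E15 against E14 and 1.07 for E16 against E15. In those that fell it was -0.40 for E15 against E14 and -0.83 for E16 against E15. The 1830 higher transcripts at an unadjusted p (limma) of at most 0.05 had medians of 0.18 and 0.35 for the same steps. The 2874 lower ones had nearly equal steps, -0.20 and -0.22, and a median E15 position of 46.3%. All of these steps share arrays with the comparison of E16 with E14. Over the whole table limma called 0 transcripts at E15 against E14 (654, or 3.06%, at an unadjusted p of at most 0.05) and 0 at E16 against E15 (1740, or 8.13%).

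ENSGALT00000029580 and ENSGALT00000020900 show the E15 level in single transcripts. ENSGALT00000029580 read 6.97, 6.52 and 5.27 at E15, which overlaps its E14 arrays and lies far below its E16 arrays. ENSGALT00000020900 read 10.04, 10.22 and 9.18 at E15, which again overlaps E14. ENSGALT00000014676 read 5.83, 5.96 and 5.95 at E15, just above all 3 of its E14 arrays. ENSGALT00000039053 read 9.66, 9.71 and 9.12, just below all 3 of its own E14 arrays.

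**Figure D4:**
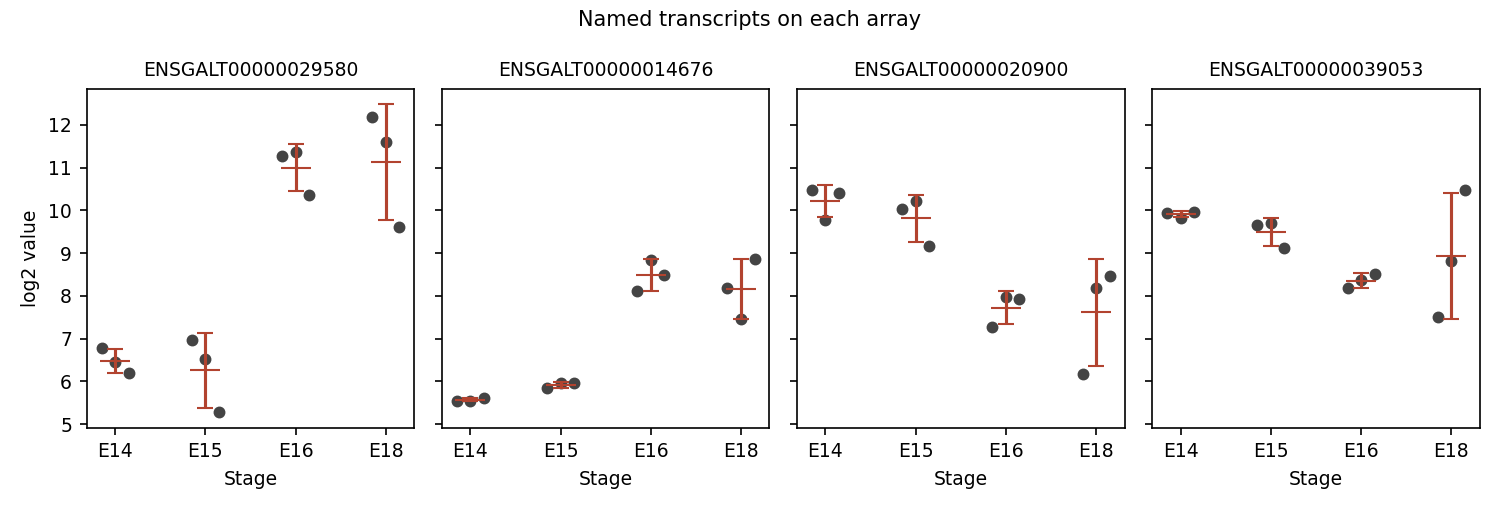
Log2 level of the 4 named transcripts on each of the 12 arrays by embryonic day, with the stage means. ENSGALT00000029580 lies at 5.27 to 6.97 on the E14 and E15 arrays and at 9.60 to 12.18 on the E16 and E18 arrays, and the E18 arrays of ENSGALT00000039053 spread over 7.51 to 10.47.

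The transcripts that rose mostly stayed high at E18, whereas the E18 arrays disagreed on those that fell. The median of the transcripts that rose, relative to the E14 mean, was 1.61, 1.64 and 1.10 on E18 replicates 1, 2 and 3, close to their E16 medians. The median of those that fell was -1.81 on replicate 1, -1.05 on replicate 2 and 0.54 on replicate 3. The transcripts that rose were above the E14 mean for 30, 29 and 27 of 30 on replicates 1, 2 and 3, and those that fell were below it for 24, 21 and 9 of 24.

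The E18 arrays differed from each other in the same way over the whole table. Their SD over transcripts was 2.58, 2.38 and 2.22 for replicates 1, 2 and 3. In the dim class of all transcripts the median relative to the E14 mean was 0.08, 0.63 and 1.46, in the middle class -0.08, -0.43 and -0.83, and in the bright class -0.07, -0.14 and -0.50. Most transcripts that fell lie in the dim class, and the part of this shift in their E18 levels was not tested. E15 replicate 3 moved the same way, with 0.25, -0.27 and -0.09 in the dimmest, middle and bright class and an SD of 2.44. The typical transcript had an SD of 0.53 at E18 and 0.22 at E15.

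**Figure D5:**
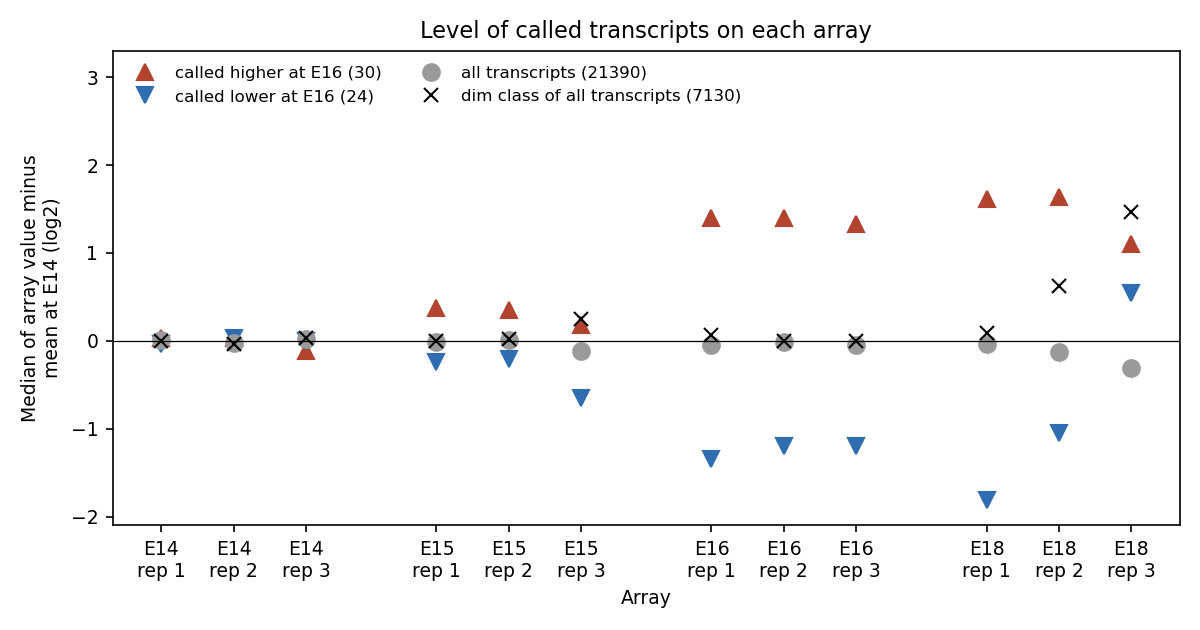
Median log2 level relative to the E14 mean on each of the 12 arrays, by stage, for the transcripts called higher at E16, those called lower, all transcripts and the dim class. Those called higher stay between 1.10 and 1.64 at E18, while those called lower and the dim class both lie highest on E18 replicate 3, at 0.54 and 1.46.

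By stage means, the median E18 position of the called transcripts was 89.0% of the way between E14 and E16, 95% for those that rose and 63.0% for those that fell. Of those that rose 14 lay beyond their E16 mean, 11 nearer to E16, 2 nearer to E14 and 3 on the other side of E14. Of those that fell 7 lay beyond E16, 6 nearer to E16, 9 nearer to E14 and 2 on the other side. All E18 arrays lay above all E14 arrays for 24 of the 30, where 15.7% of all transcripts did so, and below them for 9 of the 24, where 28.2% did (43.9% in both directions). The E18 arrays lay above all E16 arrays for 4 of the 30, where 7.12% of all transcripts did so, and below them for 1 of the 24, where 16.4% did. These comparisons share the E14 or the E16 arrays.

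In stage differences the transcripts that rose had a median of 1.31 for E18 against E14 and -0.05 for E18 against E16. Those that fell had a median of -0.77 for E18 against E14 and 0.52 for E18 against E16. The E18 arrays did not all share this positive median. Relative to the E14 mean those that fell lay at -1.81, -1.05 and 0.54 on E18 replicates 1, 2 and 3. On E16 replicates 1, 2 and 3 they lay at -1.35, -1.20 and -1.20. Below their E16 mean were 18, 9 and 5 of the 24 on E18 replicates 1, 2 and 3. The larger set at an unadjusted p (limma) of at most 0.05 had a negative median in its lower transcripts. These were brighter, with medians of 11.02 to 11.05 on the E14 arrays, against 8.64 to 8.66 for those that fell. The E18 arrays shifted dim and brighter transcripts in opposite directions, and the part of that shift was not tested. The 2874 lower transcripts of this set had medians of -0.79 and -0.37, and 2193 (76.3%) were lower at E18 than at E16, where 60.6% of all transcripts were. Its 1830 higher ones had 0.79 and 0.15, and 1099 (60.1%) were higher at E18 than at E16, where 39.4% of all transcripts were. The whole-table test of E18 against E14 called 211 transcripts (0.986%), among them 6 of the 30 called higher, where 0.519% of all transcripts were called higher, and 1 of the 24 called lower, where 0.468% were called lower. The test of E18 against E16 called 0 (limma), with 2046 (9.57%) at an unadjusted p of at most 0.05.

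The comparison of E18 with E15 uses none of the arrays that made the calls. Of the 30 transcripts that rose by E16, 26 (86.7%) were higher at E18 than at E15, where 41.8% of all transcripts were, with a median difference of 0.99. Of the 24 that fell, 18 (75%) were lower at E18 than at E15, where 58.2% of all transcripts were, with a median difference of -0.38. The median over all transcripts was -0.12. All 3 E18 arrays lay above all 3 E15 arrays for 19 of the 30 (background 7.8%) and below them for 4 of the 24 (background 15.8%).

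The test of E18 against E15 called 31 transcripts in the whole table (0.145%), 22 higher (0.103%) and 9 lower (0.0421%). Of the transcripts that rose by E16, 2 were called higher and 18 had an unadjusted p of at most 0.05 in that direction, where 5.54% of all transcripts had one. Of those that fell, limma called 0, and 3 had such a p in their direction, where 7.08% of all transcripts had one. Without E18 replicate 3, 27 of the 30 and 24 of the 24 kept their direction, and without E18 replicate 1, 25 and 11 did.

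The larger set at an unadjusted p of at most 0.05 kept its directions as well. Of the 1830 transcripts higher at E16, 1562 (85.4%) were higher at E18 than at E15, where 41.8% of all transcripts were. Their median difference was 0.63. Of the 2874 lower at E16, 2491 (86.7%) were lower, where 58.2% of all transcripts were, with a median difference of -0.58. In the first set 556 had an unadjusted p (limma) of at most 0.05 in the same direction and 11 in the opposite one. In the second these counts were 799 and 7. Over all transcripts 5.54% were higher and 7.08% lower at that p.

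Since E18 replicates 2 and 3, E15 replicate 3 and E16 replicate 1 moved dim and bright transcripts the same way, each E18 array was also set alone against the mean of E15 replicates 1 and 2. E18 replicate 1, the least compressed of its stage, was not free of that shift, with 0.08, -0.08 and -0.07 in the dim, middle and bright class, against 0.06, -0.12 and -0.04 on E16 replicate 1. On E18 replicate 1 1604 of the 1830 (87.7%) were higher, where 46.3% of all transcripts were, and 2625 of the 2874 (91.3%) were lower, where 53.7% of all transcripts were. Of the called transcripts 27 of 30 were higher and 24 of 24 lower.

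The other E18 arrays kept fewer directions. On E18 replicate 2, 1567 of the 1830 (85.6%) were higher, where 40.7% of all transcripts were, and 2564 of the 2874 (89.2%) were lower, where 59.3% were, with 26 of the 30 that rose and 16 of the 24 that fell keeping their direction. On E18 replicate 3, 1204 of the 1830 (65.8%) were higher, where 38.6% of all transcripts were, and 2289 of the 2874 (79.6%) were lower, where 61.4% were. Of the called transcripts 25 of the 30 that rose were higher on it and 8 of the 24 that fell were lower, with a median of 0.71 for those that fell.

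These transcripts also differed in how E18 set them apart from E15. ENSGALT00000029580 read 12.18, 11.61 and 9.60 at E18, a difference of 4.87 (SE 0.80) from E15 with a limma adjusted p of 0.128, and its E18 and E15 arrays did not overlap. ENSGALT00000014676 read 8.18, 7.45 and 8.86 at E18, a difference of 2.25 (SE 0.38) with an adjusted p of 0.133, again with no overlap. ENSGALT00000020900 read 6.18, 8.18 and 8.47 at E18, a difference of -2.20 (SE 0.68) with an adjusted p of 0.318, below all of its E15 arrays. ENSGALT00000039053 read 7.51, 8.82 and 10.47 at E18, a difference of -0.56 (SE 0.75) with an adjusted p of 0.645, and its E18 replicate 3 lay above every E15 array.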

How the data were processed

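The authors made double-stranded cDNA from total RNA, had it labelled by the array's provider, hybridized it to custom NimbleGen arrays and normalized the raw data by Robust Multi-array Analysis (RMA), with ArrayStar named as the analysis software. RMA corrects the background, gives the arrays a common distribution and summarizes probes, which draws low signals together. They deposited 1 log2 value per transcript and array, with 1 control, which was left out of the tests. The software version, Ensembl release and probes per transcript are not given in the sources used here, and 0 columns belonged to no sample. The number of arrays limits the precision.

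No normalization was added. A mean per stage was fitted to the 6 arrays with limma 3.58.1 in R 4.3.3 (4 residual degrees of freedom), and E16 minus E14 was tested with Benjamini-Hochberg adjustment over 21390 transcripts at 0.05. Other stage pairs were fitted in the same way on their own 6 arrays. The fit was tested on simulated data with 100 changes of 1 log2 unit and 100 of 2 log2 units. It recovered 52 and 73 of them, with 8 false calls, so in the simulated arrays it missed many changes of these sizes. The noise was drawn independently for each array, so these figures need not hold for the deposited arrays. Brightness is the mean over the 6 arrays. The named transcripts are, in each direction, the called one with the largest change and the one with the smallest p among the others, and no more identifiers are printed because none could be matched to a gene. The transcripts, thresholds and tests were chosen with earlier results of these data known. Alternatives changed the normalization, the variance model, the arrays, the block, the filter, the test and the threshold. Plots used Python 3.11.15, numpy 2.4.6, pandas 2.3.3 and matplotlib 3.10.9.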

Additional observations from a re-analysis of the deposited data

How the results depend on the processing

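The count of 54 transcripts called at E16 against E14 moved with most alternatives. It was 60 after median centring, 19 after quantile normalization (18 of the 54 among them) and 135 after cyclic loess normalization (53 of the 54). It was 96 with array weights (all 54) and 862 with an intensity trend and robust variances (all 54). Without the dim class it was 917 (29 of the 54), and the other 25 lie in that class and were not in the fit. The count was 23 with all 12 arrays in the fit (9 of the 54) and 1 with the array SD as a covariate. A one-way ANOVA, the test named in the paper's methods, was run here on the E16 and E14 arrays alone. It called 0 after adjustment and 4388 at an unadjusted p of at most 0.05. The methods do not say which stages the authors' ANOVA compared, so these counts are not a repeat of it. At other thresholds limma called 0 (adjusted p of at most 0.01), 1179 (at most 0.1, chosen after seeing the data), 4704 (unadjusted) and 39 (2-fold as well). Leaving out 1 array gave 0 to 13 calls, with 0 without E14 replicate 3, E16 replicate 1 or E16 replicate 2. There were 2 without E14 replicate 2 (0 of the 54) and 8 without E14 replicate 1 (3 of the 54). Without E16 replicate 3 there were 13 (3 of the 54). A block for the replicate number gave 0 calls (3768 at an unadjusted p of at most 0.05). The deviations of same-numbered E16 and E14 arrays correlated at 0.08, -0.21 and -0.12, and none of the E16 arrays correlated best with its own number. Deviations of 3 arrays from their own mean are bound to each other, so these few values cannot decide whether the numbers are a pairing. The labels do not say.

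The median brightness of the called transcripts, 9.24, was 11.21 without the dim class, 11.28 with the intensity trend, 7.03 with the SD covariate and 10.29 to 11.19 without single arrays. The median E15 position of 27.8% was 21.6% to 66.5% without single arrays, with 66.5% for the 2 transcripts called without E14 replicate 2. The share of the called transcripts that kept their direction at E18 against E15 was 81.5%. It held 26 of the 30 called higher and 18 of the 24 called lower. Over all transcripts 41.8% were higher and 58.2% lower. The share was 95.7% for those called with all 12 arrays, 20 of the 21 higher and 2 of the 2 lower. That fit takes its variance from the E15 and E18 arrays too, and its calls are nearly all higher. Its 95.7% is therefore no independent check and cannot be set beside 81.5%. Without single arrays the share was 66.7% (without E18 replicate 1) to 94.4% (without E18 replicate 3). It was 94.4% for E18 replicate 1 against E15 replicates 1 and 2, a comparison chosen after seeing the data. The differences of ENSGALT00000029580, ENSGALT00000014676, ENSGALT00000020900 and ENSGALT00000039053 kept their sign under every alternative run, at 4.34 to 4.84, 2.73 to 3.21, -2.71 to -2.13 and -1.63 to -1.43, while 8, 8, 11 and 10 of their alternatives gave them an adjusted p above 0.05. The causes were not tested.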
